A study of Mus musculus with 21 samples.

Results

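Gene expression was compared between CD11b+ cells of the spleen and CD11b+ cells of the bone marrow (BM) in control mice. Members were taken from the labels: every library of CD11b+ cells from a MxCre or a Ptpn11D61Y/+ control, which gave 8 of the 21 libraries of the series, 4 of spleen and 4 of BM, with 2 libraries for each genotype and tissue. The series was made to study a mouse model of juvenile myelomonocytic leukemia and also holds LSK stem and progenitor cells of the BM and libraries of terminally ill stage 3 (S3) mice. RNA was sequenced, and the deposited value is the number of reads per gene.

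MxCre mice carry the Cre recombinase under the interferon-inducible Mx1 promoter and have no mutant Ptpn11 allele. Ptpn11D61Y/+ mice carry the D61Y allele of Ptpn11, which encodes the phosphatase SHP2, behind a Neo-Stop cassette. They have no Cre, so that the mutant allele stays silent and 1 functional Ptpn11 allele remains. S3 MxCre;Ptpn11D61Y/+ mice carry both. According to the study's methods all mice, controls included, received the interferon inducer poly I:C, although the labels list no treatment. Ages of the mice were not given in the sources used here. CD11b+ cells were enriched on magnetic columns (the labels name MACS or FACS), so that other blood cells can remain in a preparation. The study's methods name MxCre and S3 mice for these cells, with more MxCre mice than the labels give MxCre libraries per tissue. Whether each library came from a separate mouse was not stated, and p-values measure the spread between these libraries.

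CD11b, encoded by Itgam, is an integrin chain on neutrophils, monocytes, many macrophages and some dendritic cells and NK cells. In the BM these cells arise from progenitors: promyelocytes make primary granules, later neutrophil precursors make secondary granules and then stop dividing, and erythroblasts mature beside them. The spleen holds mature neutrophils and monocytes delivered by blood, red pulp macrophages that recycle iron from old red cells, and dendritic cells that present antigen on MHC class II. The comparison therefore addresses how far the CD11b+ fraction of control animals differs between the 2 organs.

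Depth ran from 38436746 to 76587795 counts per library, with a median of 59423485 in spleen and 59327676.5 in BM. Between 14641 and 21425 genes had at least 1 count. The 10 most abundant genes took 15.9% to 27.1% of the counts in BM and 7.71% to 13.2% in spleen. For this share the exact two-sided permutation test gave p = 0.0286, the smallest that 4 against 4 libraries allow, and 0.114 after adjustment over the 4 library measures tested. Total counts (p = 0.571), genes detected (p = 1.0) and the share of mitochondrially encoded transcripts (p = 0.571) did not pass the same exact test, which does not show that they were equal.

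Levels are given as log2 CPM, which are counts scaled to a common library size, and the 4 values of a tissue always stand in the order MxCre replicate 1, MxCre replicate 2, Ptpn11D61Y/+ replicate 1 and Ptpn11D61Y/+ replicate 2. Itgam was 7.85, 8.98, 6.89 and 7.66 in spleen and 7.54, 8.001, 9.36 and 9.68 in BM, so the gene of the sorted marker was present in every library, and the tissues overlapped (log2 fold change -0.73 ± 0.67 (SE), adjusted p = 0.6251). Ptpn11 was 3.53, 4.79, 5.61 and 4.77 in spleen and 4.13, 5.18, 5.20 and 5.47 in BM (log2 fold change -0.26 ± 0.38 (SE), adjusted p = 0.785). Genes of other cells were also present. The most abundant of them per length were Hba-a1 of the erythroid list and Igkc of the plasma cell list.

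Of the control libraries, 1 stood apart from its label. Over the 8062 genes that averaged 3 log2 CPM or more, the library labelled BM MxCre replicate 1 correlated with spleen MxCre replicate 1 at r = 0.90 and with spleen MxCre replicate 2 at 0.87. Its correlation with the spleen Ptpn11D61Y/+ libraries was lower, 0.67 and 0.75. With the other BM libraries it was 0.77, 0.67 and 0.62, whereas those 3 correlated with each other at 0.86 to 0.98. These correlations describe genes within pairs of libraries and carry no test. C1qa, a complement gene of tissue macrophages, was 12.28 in this library and 5.60 to 6.97 in the other BM libraries, and the proliferation gene Mki67 was 5.70 against 9.60 to 9.75. Its erythroid and primary granule genes lay between the spleen and the other BM libraries. The label was kept. Genes of the lists below set this library apart. The fit without it therefore separates such genes in part by its choice and is no independent support for them. The genes called below were all called in the same direction without this library too, and each list's count of calls is also given without it, with the median of a list where a printed median moved by over 1.5 times. Other omissions ended most calls. Of 65 called genes checked by name, 9 to 29 stayed called when any other 1 library was left out. In the MxCre libraries alone 0 stayed called.

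**Figure D1:**
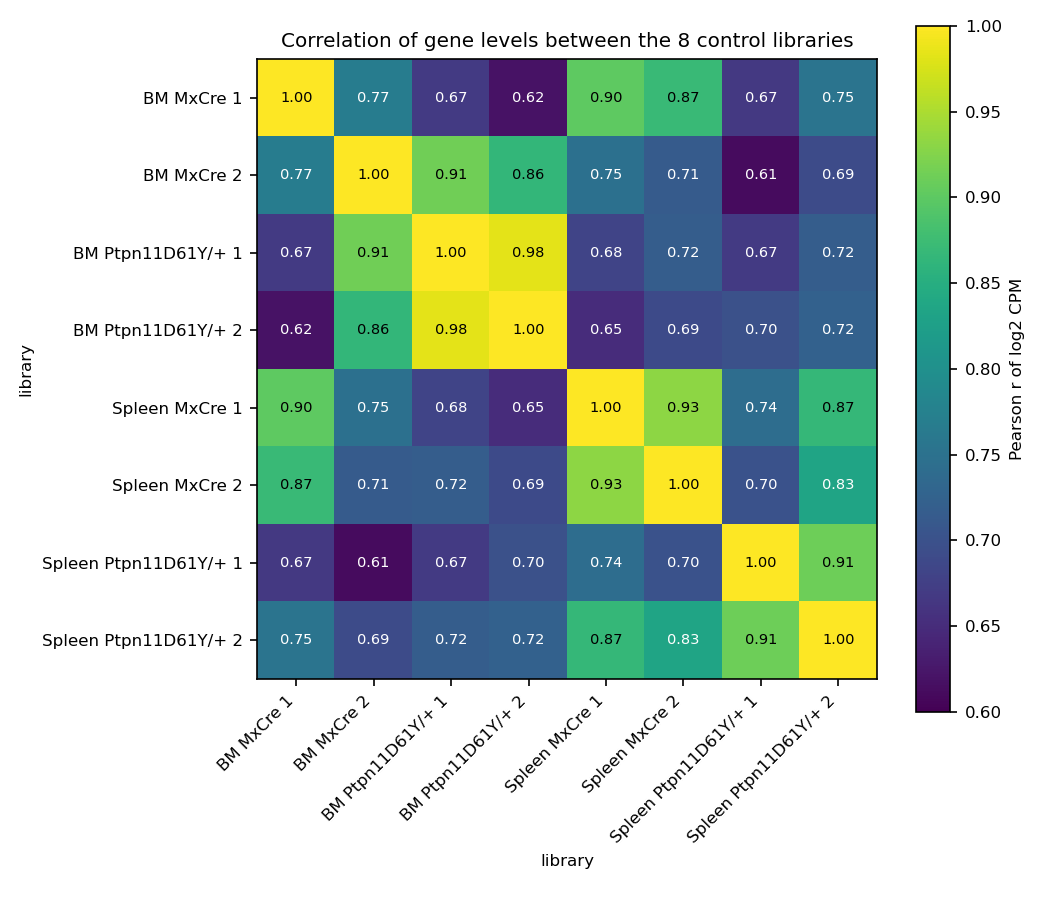
Pearson correlation of log2 CPM over 8062 genes between the 8 control libraries, with both axes in the order BM then spleen. BM MxCre replicate 1 reached 0.90 and 0.87 with the spleen MxCre libraries and 0.77 at most with another BM library.

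Sex-linked transcripts showed which libraries could share an animal. Xist, transcribed from the inactive X chromosome, had 4753 counts in spleen Ptpn11D61Y/+ replicate 1, where the Y-linked Ddx3y, Kdm5d, Eif2s3y and Uty had 0. BM Ptpn11D61Y/+ replicate 1 had 1 count of Xist and 1113 of Ddx3y, so the libraries with this number came from different animals. BM MxCre replicate 2 held 2834 counts of Xist together with 353 of Ddx3y and 1472 of Eif2s3y. Transcripts of both sexes were thus present in this 1 library, and whether it holds more than 1 animal was not tested. The other 5 libraries had 0 to 4 counts of Xist and 1059 or more of Ddx3y. One of them, spleen MxCre replicate 2, had 4 counts of Xist and 2500 of Ddx3y. It thus did not come from the same animals throughout as BM MxCre replicate 2, but a shared male was not excluded. Equal replicate numbers were therefore not treated as pairs, although these counts cannot show whether other same-numbered libraries share an animal.

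The main fit called 222 genes higher in spleen and 223 lower among 16876 tested (edgeR's quasi-likelihood test with genotype as covariate, Benjamini-Hochberg adjusted p under 0.05), which is 1.32% in each direction. Over all genes tested, the log2 fold changes (spleen minus BM) had a median of -0.02. With library size as the only scaling this median was 0.21 and the split was 320 higher to 212 lower, 60.2% of calls higher against 49.9%. All 4 spleen libraries lay above all 4 BM libraries for 4.7% of the genes tested and below them for 3.8%.

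The count depended on which libraries were in the fit. Without BM MxCre replicate 1 it rose to 1101 higher (6.04% of 18220) and 1543 lower (8.47%), and these included all 445 genes called with 8 libraries, in the same direction. In the other BM libraries, the fit gave 79 and 30 without MxCre replicate 2, 40 and 17 without Ptpn11D61Y/+ replicate 1, and 44 and 19 without Ptpn11D61Y/+ replicate 2. In spleen it gave 34 and 4 without MxCre replicate 1, 71 and 10 without MxCre replicate 2, 81 and 34 without Ptpn11D61Y/+ replicate 1, and 33 and 4 without Ptpn11D61Y/+ replicate 2. Within the MxCre libraries alone, where BM MxCre replicate 1 is 1 of 2 BM libraries, no gene of 14546 passed (0%) and 961 (6.61%) had an unadjusted p under 0.05. Within the Ptpn11D61Y/+ libraries alone 1939 of 16234 were higher (11.9%) and 2326 lower (14.3%).

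Ranked by size among called genes of at least 3 log2 CPM whose tissues did not overlap, the 12 largest rises in spleen were Fscn1, Tbc1d4, Dnase1l3, Nr4a3, Mreg, Traf1, Tppp3, Grasp, Nectin1, Bcl2a1d, Ace and Avpi1, with log2 fold changes from 6.30 to 3.81. Fscn1 encodes fascin, an actin-bundling protein of mature dendritic cells, and lies in GRCm38 at ENSMUSG00000029581, chr5:142960343-142973185 on the + strand. Its level was 5.999, 4.62, 8.36 and 7.45 in spleen and 1.07, -1.05, 0.24 and 0.89 in BM, a mean of 6.61 ± 1.64 against 0.29 ± 0.96 (SD, n = 4 each). The fitted rise was 78.7-fold (log2 fold change 6.30 ± 0.80 (SE), adjusted p = 0.0136). The Ptpn11D61Y/+ spleens were the highest, and no BM library came near the lowest spleen.

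Traf1, an adaptor of the TNF receptor family, had the smallest standard error of these 12 genes, with 7.42, 7.14, 7.44 and 7.67 in spleen and 3.21, 2.89, 3.98 and 3.85 in BM (log2 fold change 3.95 ± 0.26 (SE), adjusted p = 0.00101). Tbc1d4, a GTPase-activating protein for Rab proteins, was 7.76, 6.17, 7.58 and 7.65 in spleen and 2.96, 1.44, 1.87 and 1.77 in BM (log2 fold change 5.30 ± 0.54 (SE), adjusted p = 0.00659). Dnase1l3, a secreted DNase of dendritic cells and macrophages, was 7.40, 6.40, 9.07 and 8.06 in spleen and 4.45, 1.26, 1.95 and 2.30 in BM (log2 fold change 4.96 ± 0.99 (SE), adjusted p = 0.0428), and BM MxCre replicate 1 was the highest of the BM libraries. The pattern recurred for Nr4a3, an orphan nuclear receptor, whose log2 fold change of 4.47 became 5.81 without that library. Ace, which encodes angiotensin-converting enzyme and marks patrolling monocytes, was 7.93, 7.37, 5.65 and 6.89 in spleen and 3.47, 2.84, 2.84 and 3.58 in BM (log2 fold change 3.82 ± 0.45 (SE), adjusted p = 0.0108). Mreg rose by 4.16, Tppp3 by 3.91, Grasp by 3.89 and the adhesion gene Nectin1 by 3.84. All 12 rose in the fit without BM MxCre replicate 1 as well, with Tppp3 at 3.49 (adjusted p = 0.0182). With any other 1 library left out, Traf1, Tbc1d4, Mreg and Nectin1 stayed called. Dnase1l3, Bcl2a1d and Avpi1 lost the call each time, and the rest of these genes lost it at least once.

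The 12 largest falls included Rhd, Pdzk1ip1, Cldn13, Ermap, Hba-a1, Hbb-bs, Tmcc2, Hbb-bt, Hba-a2 and Cdr2, from -8.02 to -5.53 on the log2 scale. Most are known from maturing red cells. Rhd, a blood group antigen gene, was -3.77, 0.55, 2.13 and -1.46 in spleen and 2.93, 8.90, 9.18 and 8.73 in BM (log2 fold change -8.02 ± 1.62 (SE), adjusted p = 0.043). The beta-globin gene Hbb-bs (ENSMUSG00000052305, chr7:103826534-103828096 on the - strand) was 9.11, 8.09, 10.45 and 8.53 in spleen and 12.69, 15.43, 15.53 and 15.79 in BM, lower in spleen by 59.9-fold (log2 fold change -5.90 ± 0.82 (SE), adjusted p = 0.0175). For both genes the tissues did not overlap, and BM MxCre replicate 1 was the lowest BM library. Hba-a1 with Hba-a2 and Hbb-bs with Hbb-bt are near-identical copies between which reads may be split, so that their separate values are uncertain.

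**Figure D2:**
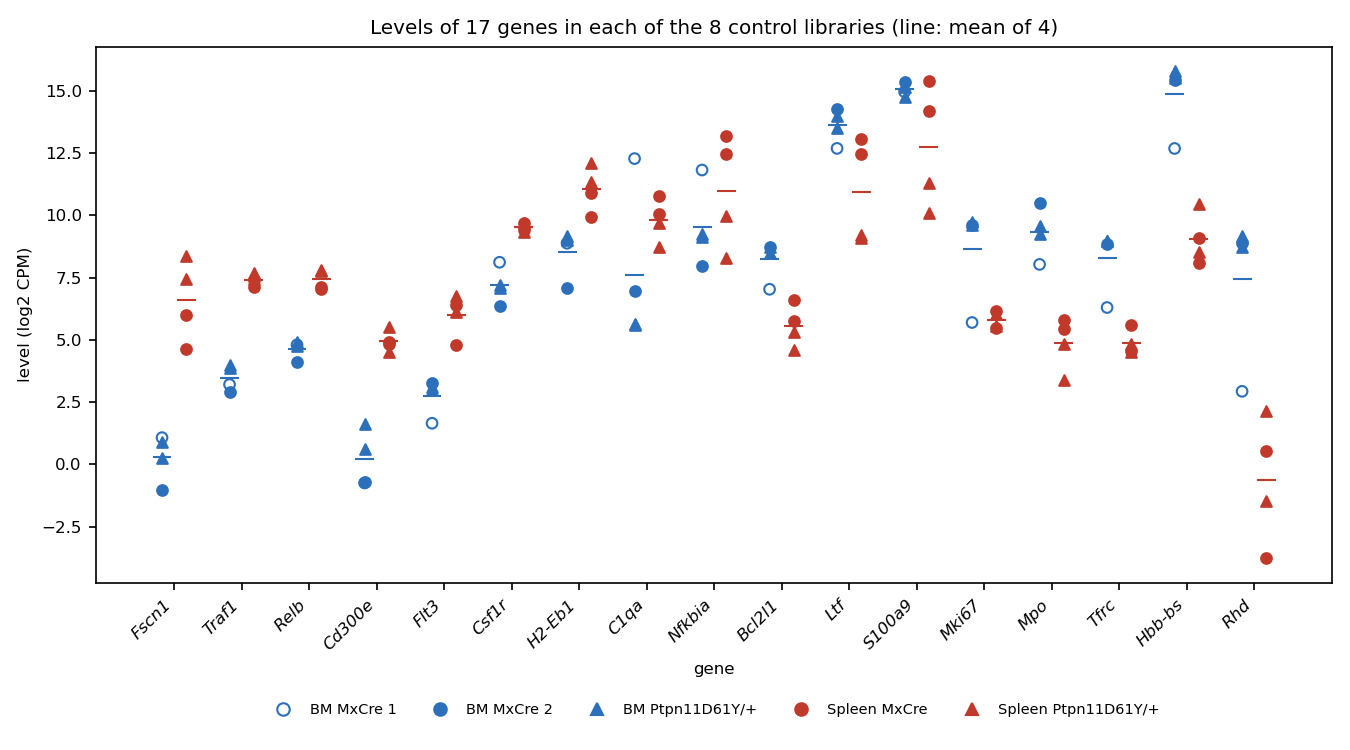
Level in log2 CPM (y axis) of 17 genes named in the text (x axis) in each control library, blue for BM, red for spleen, circles for MxCre and triangles for Ptpn11D61Y/+, with lines at the mean of 4. The open circle, BM MxCre replicate 1, lies at 12.28 for C1qa and at 5.70 for Mki67, among or beyond the spleen values.

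Erythroid genes were lower in spleen. Of 15 tested members of the erythroid list, 11 fell, none rose, and the median was -6.02 against -0.02 for all genes, where 1.32% of genes tested fell. Alas2, the first enzyme of erythroid heme synthesis, changed by -6.29 ± 0.99, the band 3 anion exchanger Slc4a1 by -7.20 ± 1.42, Epb42 by -6.81 ± 1.30 and the erythropoietin receptor gene Epor by -3.91 ± 0.62. The summed level of the list was 2705, 838, 4091 and 889 CPM in spleen and 39685, 190945, 130233 and 131649 CPM in BM, with no list member in the tables at 0 over either tissue. BM MxCre replicate 1 had the lowest of the BM sums, still above every spleen library. In bulk samples, fewer cells of a type and less RNA per cell cannot be told apart. Without BM MxCre replicate 1 all 15 fell, where 8.47% of all genes fell, with a median of -6.39. Among iron genes Tfrc, the transferrin receptor that erythroblasts use to take up iron, fell (5.60, 4.56, 4.53 and 4.82 in spleen and 6.30, 8.86, 8.98 and 8.98 in BM, log2 fold change -3.61 ± 0.61 (SE), adjusted p = 0.0299), and so did Blvrb (log2 fold change -1.75 ± 0.30 (SE), adjusted p = 0.031).

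Genes of dividing cells had lower fitted levels in spleen, but few passed the test. All 31 tested G2/M genes and all 32 tested S phase genes had negative fold changes, with medians of -2.70 and -1.70, but only Birc5, Ube2c and Cenpe passed with 8 libraries, where 1.32% of all genes fell. The DNA helicase subunit gene Mcm5 was at -1.78 ± 0.50 and Rrm1 at -2.29 ± 0.62, neither past the threshold. Mki67 was 5.46, 6.18, 6.06 and 5.54 in spleen and 5.70, 9.61, 9.75 and 9.60 in BM (log2 fold change -3.34 ± 0.74 (SE), adjusted p = 0.054). Its 4 spleen libraries and BM MxCre replicate 1 lay within 1 log2 unit, while the remaining BM libraries lay more than 3 units higher. Ube2c, a ubiquitin-conjugating enzyme of the anaphase-promoting complex, was 6.75, 5.99, 4.70 and 5.01 in spleen and 6.63, 9.86, 8.88 and 8.25 in BM (log2 fold change -3.16 ± 0.66 (SE), adjusted p = 0.0456). Cenpe, a kinetochore motor, was 2.81, 3.06, 2.94 and 2.67 in spleen and 3.10, 6.41, 5.98 and 5.97 in BM (log2 fold change -2.89 ± 0.60 (SE), adjusted p = 0.0455) and was the 1 G2/M gene whose tissues did not overlap. Without BM MxCre replicate 1, 29 of 31 G2/M genes and 30 of 32 S phase genes fell, where 8.47% of all genes fell. Then Mki67 fell by 3.81, Top2a by 2.70, Rrm2, a subunit of ribonucleotide reductase, by 3.35, and the replication factor gene Pcna by 1.31 on the log2 scale. Erythroblasts and granulocyte precursors both divide in the BM, and the part of either in this difference was not tested.

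Promoters of mitotic genes are known for CCAAT boxes, bound by the factor NF-Y. The letters CCAAT, on either strand, occurred in the 250 bases before a RefSeq start for 21 of the 26 tested G2/M genes with an entry and for 37.5% of all 27025 symbols in the RefSeq promoter table (GRCm38.p6). Of the 3 called genes Ube2c held 6 matches, Cenpe 1 and Birc5 none. Ube2c and Cenpe are shown with the matches in capitals, 5′ to 3′ along the gene's strand, Ube2c at chr2:164769679-164769928, + strand and Cenpe at chr3:135212313-135212562, + strand. A match describes the letters, not a bound site.
Ube2c: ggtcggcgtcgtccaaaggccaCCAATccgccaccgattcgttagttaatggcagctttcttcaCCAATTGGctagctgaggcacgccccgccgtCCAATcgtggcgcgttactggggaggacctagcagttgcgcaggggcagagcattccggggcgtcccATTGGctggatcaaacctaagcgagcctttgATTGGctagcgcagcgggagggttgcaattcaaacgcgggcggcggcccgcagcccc
Cenpe: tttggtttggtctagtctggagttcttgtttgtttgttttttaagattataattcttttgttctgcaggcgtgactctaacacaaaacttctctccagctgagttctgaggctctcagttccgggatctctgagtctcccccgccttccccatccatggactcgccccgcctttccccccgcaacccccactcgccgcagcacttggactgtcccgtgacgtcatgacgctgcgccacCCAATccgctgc

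Neutrophil genes are given in the order of maturation. The 7 primary granule genes, made at the promyelocyte stage, had a median of -3.73, and 5 of them fell, where 1.32% of all genes fell. Mpo, which encodes myeloperoxidase (ENSMUSG00000009350, chr11:87793581-87804413 on the + strand), was 5.80, 5.44, 3.40 and 4.83 in spleen and 8.03, 10.51, 9.58 and 9.25 in BM, lower in spleen by 24.8-fold (log2 fold change -4.63 ± 0.64 (SE), adjusted p = 0.0175). Elane, neutrophil elastase, was 5.58, 5.33, 3.04 and 4.34 in spleen and 6.31, 9.31, 9.15 and 8.76 in BM (log2 fold change -4.08 ± 0.78 (SE), adjusted p = 0.0383). Prtn3 changed by -3.73 ± 0.76, Ctsg by -4.41 ± 0.72 and Ms4a3 by -3.55 ± 0.69, all past the threshold, whereas Fcnb at -2.94 ± 1.10 was not (adjusted p = 0.19). For Mpo and Elane the lowest values were those of the Ptpn11D61Y/+ spleens. With BM MxCre replicate 1 left out all 7 fell, where 8.47% of all genes fell, with a median of -4.23.

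The 16 secondary and tertiary granule genes, made in later precursors, all had negative fold changes with a median of -2.31, and none was called. Ltf, lactoferrin, was 12.45, 13.05, 9.07 and 9.22 in spleen and 12.69, 14.27, 13.997 and 13.53 in BM (log2 fold change -2.76 ± 0.92 (SE), adjusted p = 0.15). The 2 spleen MxCre libraries lay beside the BM libraries, and the 2 spleen Ptpn11D61Y/+ libraries lay more than 3 log2 units below them. Camp, cathelicidin, had the same arrangement, 13.11, 12.90, 8.21 and 9.14 in spleen and 13.03, 14.09, 13.19 and 12.84 in BM (log2 fold change -2.46 ± 0.87 (SE), adjusted p = 0.168). Without BM MxCre replicate 1, 12 of 16 fell, where 8.47% of all genes fell, Ngp by 3.57 and Lcn2 by 3.35.

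The 15 genes of mature neutrophils had a median of -0.81 and none was called. S100a9, a calcium-binding alarmin and the most abundant gene of the list per length, was 14.19, 15.38, 10.09 and 11.31 in spleen and 14.96, 15.38, 15.15 and 14.76 in BM (log2 fold change -2.21 ± 0.97 (SE), adjusted p = 0.262). S100a8 at -2.14 ± 0.95 and Retnlg at -2.15 ± 0.80 also did not pass. For S100a8 the spleen MxCre libraries lay within 1 log2 unit of the BM range, and the spleen Ptpn11D61Y/+ libraries were the lowest of the 8. Csf3r, the receptor for granulocyte colony-stimulating factor, was at 0.11 ± 0.74. Of this list 1 gene fell without BM MxCre replicate 1, where 8.47% of all genes fell. The summed level of the list was 37581, 81110, 2274 and 5433 CPM in spleen and 60527, 65257, 59277 and 43654 CPM in BM.

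**Figure D3:**
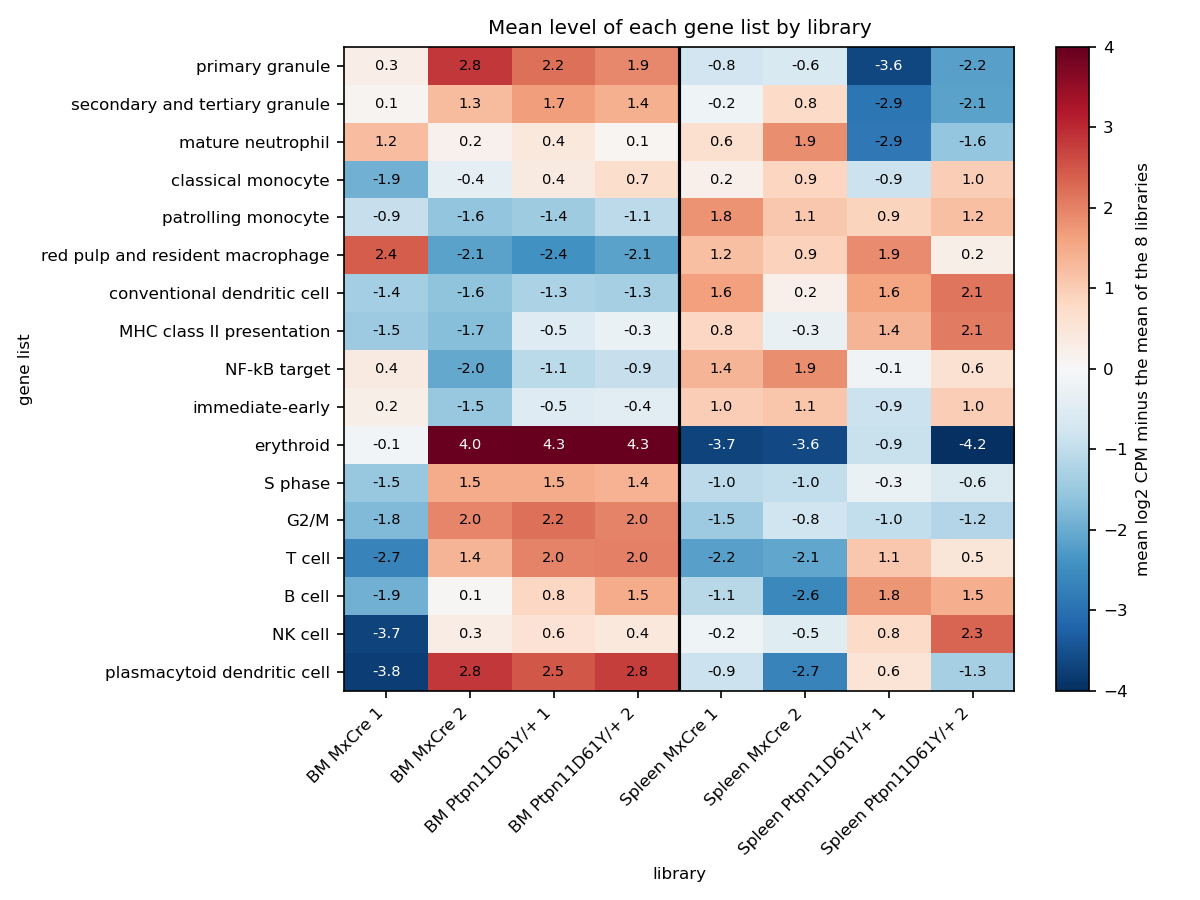
Mean log2 CPM of the tested genes of 17 lists (rows) in each control library (columns), minus the mean over the 8 libraries, with BM left of the line and spleen right of it. The erythroid list stands at 4.0 to 4.3 in the BM libraries other than MxCre replicate 1, and the 3 neutrophil lists are lowest in the 2 spleen Ptpn11D61Y/+ libraries.

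Of 9 tested genes of patrolling monocytes, 5 rose in spleen and none fell, with a median of 2.55, where 1.32% of all genes rose. In the fit without BM MxCre replicate 1, 7 of 9 rose, where 6.04% of all genes rose. Cd300e, a myeloid activating receptor, was 4.85, 4.93, 5.51 and 4.51 in spleen and -0.75, -0.69, 0.60 and 1.62 in BM (log2 fold change 4.77 ± 0.52 (SE), adjusted p = 0.00805), with all BM libraries more than 2 log2 units below the lowest spleen. Eno3 was 7.12, 6.42, 6.13 and 6.66 in spleen and 3.47, 3.89, 3.49 and 3.36 in BM (log2 fold change 3.05 ± 0.26 (SE), adjusted p = 0.00448). Ace, Adgre4 (2.55 ± 0.38) and Pou2f2 (1.65 ± 0.33) rose too. Of the other abundant members, the chemokine receptor gene Cx3cr1 was at 1.27 ± 0.41, Treml4 at 2.37 ± 0.63 and Spn at -0.19 ± 0.49, and none of these passed. Nr4a1, the nuclear receptor that patrolling monocytes need, was 12.05, 11.45, 9.31 and 11.12 in spleen and 9.53, 7.09, 7.82 and 7.94 in BM and just missed the threshold (adjusted p = 0.0516). It rose without BM MxCre replicate 1 by 3.35 (adjusted p = 0.00915). The summed level was 5326, 3427, 1242 and 2913 CPM in spleen and 986, 389, 464 and 514 CPM in BM. Nr4a1, the most abundant gene of the list and also an immediate-early gene, weighs heavily in these sums.

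Of 9 classical monocyte genes 1 rose (1.32% of all genes). Without BM MxCre replicate 1 it rose too (6.04% of all genes) and another fell (8.47%). The median was 0.85. The gene that rose was Csf1r, the receptor for macrophage colony-stimulating factor, at 9.41, 9.70, 9.68 and 9.33 in spleen and 8.12, 6.37, 7.08 and 7.20 in BM (log2 fold change 2.23 ± 0.40 (SE), adjusted p = 0.0347). The 4 spleen values lay within 1 log2 unit and above every BM library. The fibronectin gene Fn1 was at -0.066 ± 0.92 and the lipopolysaccharide co-receptor gene Cd14 at 1.91 ± 0.80, neither called. Ly6c2, the surface marker of classical monocytes, was 7.65, 8.38, 5.79 and 7.58 in spleen and 7.40, 9.46, 9.78 and 9.51 in BM (log2 fold change -1.71 ± 0.66 (SE), adjusted p = 0.205), and it fell by 2.22 without BM MxCre replicate 1 (adjusted p = 0.0189).

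Genes of red pulp and other resident macrophages formed the list whose median moved most, of 41, when BM MxCre replicate 1 was left out. All 16 had positive fold changes with a median of 1.51, and none was called. C1qa was 10.77, 10.06, 9.69 and 8.74 in spleen and 12.28, 6.97, 5.64 and 5.60 in BM (log2 fold change 1.41 ± 1.46 (SE), adjusted p = 0.672). Hmox1, heme oxygenase, was 10.11, 10.29, 11.23 and 9.33 in spleen and 11.47, 6.78, 6.81 and 6.85 in BM (log2 fold change 1.72 ± 1.31 (SE), adjusted p = 0.546). For both, BM MxCre replicate 1 was the highest of all 8 libraries, while the other BM libraries lay below every spleen library. Without it 15 of 16 rose, where 6.04% of all genes rose, with a median of 3.53: C1qa by 3.60 ± 0.40 (SE), C1qc by 3.73 ± 0.40, Hmox1 by 3.62 ± 0.51 and Vcam1 by 2.89 ± 0.38. Because C1qa was among the genes that set that library apart, this fit is no independent support for the rise. The summed level was 6747, 5602, 7992 and 2919 CPM in spleen and 17599, 637, 529 and 572 CPM in BM.

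Of 11 conventional dendritic cell genes 3 rose in spleen, where 1.32% of all genes rose, and none fell, with a median of 3.18. Flt3, the receptor that dendritic cell precursors need, was 6.38, 4.79, 6.13 and 6.77 in spleen and 1.65, 3.28, 3.10 and 3.002 in BM (log2 fold change 3.28 ± 0.47 (SE), adjusted p = 0.0204). Clec4a4, a lectin receptor of splenic dendritic cells, was 2.93, 2.37, 4.01 and 4.54 in spleen and -4.92, -3.68, -2.03 and -1.98 in BM (log2 fold change 6.97 ± 0.62 (SE), adjusted p = 0.00488), with at most 15 counts in a BM library and up to 1832 in spleen. Cd209a rose by 2.36 ± 0.43. These were the 3 called. Itgax, CD11c, was 7.995, 7.72, 8.01 and 8.41 in spleen and 6.64, 3.78, 3.87 and 3.95 in BM and missed the threshold (adjusted p = 0.0578), although the tissues did not overlap. The chemokine receptor gene Ccr7 was at 1.26 ± 0.63 and the lectin gene Clec10a at -0.44 ± 0.53, neither called. Leaving out BM MxCre replicate 1, 8 of 11 rose, where 6.04% of all genes rose. The 4 plasmacytoid dendritic cell genes had negative fold changes with a median of -2.89, and none was called with 8 libraries. All 4 fell without BM MxCre replicate 1, where 8.47% of all genes fell. Siglech was 1.37, -0.40, 2.98 and 0.12 in spleen and -4.92, 6.08, 5.33 and 5.47 in BM (log2 fold change -3.79 ± 1.502 (SE), adjusted p = 0.214), and it fell by 4.14 without that library (adjusted p = 0.00663).

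All 10 MHC class II presentation genes had positive fold changes, with a median of 1.98, and 3 rose (1.32% of all genes). H2-Eb1, an MHC class II beta chain, was 10.89, 9.92, 11.33 and 12.10 in spleen and 8.88, 7.09, 9.02 and 9.17 in BM (log2 fold change 2.45 ± 0.48 (SE), adjusted p = 0.0409). H2-DMa, which helps to load peptides, rose by 1.71 ± 0.36, and Ciita, the master activator of class II genes, was 4.62, 3.51, 7.19 and 7.04 in spleen and 1.70, 1.69, 4.05 and 5.07 in BM (log2 fold change 2.48 ± 0.33 (SE), adjusted p = 0.0169). Cd74, the invariant chain, was 12.74, 11.79, 12.92 and 13.58 in spleen and 11.54, 10.07, 11.11 and 10.95 in BM (log2 fold change 1.81 ± 0.48 (SE), adjusted p = 0.0892), and its tissues did not overlap. H2-Ab1 at 2.13 ± 0.53 and H2-Aa at 2.08 ± 0.48 did not pass either. Leaving out BM MxCre replicate 1, 9 of 10 rose, where 6.04% of all genes rose, Cd74 by 2.26. B cells also carry class II molecules, and the B cell list was 2051, 414, 16999 and 6294 CPM in spleen and 1129, 3313, 4656 and 7626 CPM in BM, with none of its 13 genes called. Ighm, its most abundant gene per length, was at 0.25 ± 0.75, and the B cell receptor chain genes Cd79a and Cd79b at -0.86 ± 0.68 and -1.46 ± 0.65. The highest B cell sum was that of spleen Ptpn11D61Y/+ replicate 1, and 1 of the 13 genes rose without BM MxCre replicate 1 (6.04% of all genes). The part of B cells in the class II values was not tested.

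Of 20 NF-kB target genes 7 rose in spleen, where 1.32% of all genes rose, none fell and 13 did not pass. All 20 had positive fold changes, with a median of 1.28. The called genes were Traf1, Relb, Icam1, Nfkbie, Il1a, Nfkb2 and Bcl3. Relb and Nfkb2 encode the subunits of the alternative NF-kB pathway. Relb was 7.03, 7.13, 7.75 and 7.80 in spleen and 4.80, 4.11, 4.76 and 4.92 in BM (log2 fold change 2.76 ± 0.25 (SE), adjusted p = 0.00519), and Nfkb2 was 7.66, 8.01, 7.90 and 7.82 in spleen and 6.21, 5.37, 6.001 and 6.30 in BM (log2 fold change 1.85 ± 0.27 (SE), adjusted p = 0.0211). Neither overlapped between the tissues, and in spleen the 2 genotypes differed by under 1 log2 unit. Nfkbie, an inhibitor of NF-kB, rose by 2.07 ± 0.30, the adhesion molecule Icam1 by 2.61 ± 0.44, Bcl3 by 1.76 ± 0.36 and Il1a by 4.10 ± 0.71, the last from at most 26 counts in a BM library. Tnf, by contrast, was 9.12, 9.46, 4.78 and 6.05 in spleen and 8.72, 4.63, 5.64 and 5.71 in BM (log2 fold change 0.69 ± 0.77 (SE), adjusted p = 0.699) and was high in the 2 spleen MxCre libraries and in BM MxCre replicate 1 alone. The abundant members Nfkbia (1.06 ± 0.81), Il1b (1.22 ± 0.82), Tnfaip3 (1.60 ± 0.72) and Cxcl2 (0.80 ± 0.998) did not pass. In the fit without BM MxCre replicate 1, 10 of 20 rose, where 6.04% of all genes rose, with a median of 1.998.

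The letters of an NF-kB consensus, GGG, any 3 bases and TTCC, on either strand, occurred in the 250 bases before a RefSeq start for 6 of 15 tested list genes with an entry, against 5.31% of all symbols. Of the 7 called genes 6 had an entry, and Nfkb2 and Nfkbie held a match. The match is a description of letters. The windows are shown with matches in capitals, Nfkbie at chr17:45555450-45555699, + strand and the most upstream of 3 listed starts of Nfkb2 at chr19:46304487-46304736, + strand.
Nfkbie: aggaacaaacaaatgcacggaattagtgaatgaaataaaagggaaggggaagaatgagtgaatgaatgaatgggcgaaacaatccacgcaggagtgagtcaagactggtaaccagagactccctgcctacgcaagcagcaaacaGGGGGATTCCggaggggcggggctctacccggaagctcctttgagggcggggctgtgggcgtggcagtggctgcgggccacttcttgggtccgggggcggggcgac
Nfkb2: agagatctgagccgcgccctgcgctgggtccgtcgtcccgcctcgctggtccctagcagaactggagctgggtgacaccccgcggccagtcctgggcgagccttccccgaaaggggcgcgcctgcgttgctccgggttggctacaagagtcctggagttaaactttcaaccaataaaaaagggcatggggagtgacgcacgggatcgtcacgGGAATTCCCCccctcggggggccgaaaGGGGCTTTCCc

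Immediate-early genes are transcribed soon after a stimulus, without new protein. All 22 had positive fold changes, 2 rose (1.32% of all genes), and the median was 0.68. The 2 were Nr4a3 and Nr4a2, the latter at 4.68, 3.88, 4.42 and 4.30 in spleen and -0.17, 1.15, 1.77 and 2.11 in BM (log2 fold change 3.07 ± 0.45 (SE), adjusted p = 0.0214). The most abundant members, Junb (0.69 ± 0.76), Zfp36 (0.52 ± 0.65), Klf2 (0.66 ± 0.58) and Jun (0.69 ± 0.56), did not pass. Of 8 heat shock genes, 1 rose (1.32% of all genes), Hsph1 (8.06, 6.91, 6.89 and 6.56 in spleen and 5.02, 3.71, 3.96 and 5.29 in BM, log2 fold change 2.53 ± 0.49 (SE), adjusted p = 0.0391), with a median of 2.03. Hspa8 was 11.15, 10.91, 10.65 and 11.06 in spleen and 10.03, 9.42, 9.61 and 10.28 in BM (log2 fold change 1.09 ± 0.33 (SE), adjusted p = 0.119). Hspa1b (2.64 ± 0.76), Hsp90aa1 (0.58 ± 0.34) and Dnajb1 (0.64 ± 0.42) did not pass. In the fit without BM MxCre replicate 1, 5 of 22 immediate-early genes rose, with a median of 1.13, and 5 of 8 heat shock genes rose, where 6.04% of all genes rose. The summed immediate-early level was 55301, 49782, 6221 and 30009 CPM in spleen and 45687, 9896, 13823 and 14045 CPM in BM, so that 3 spleen libraries and BM MxCre replicate 1 were high and spleen Ptpn11D61Y/+ replicate 1 was the lowest of all.

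**Figure D4:**
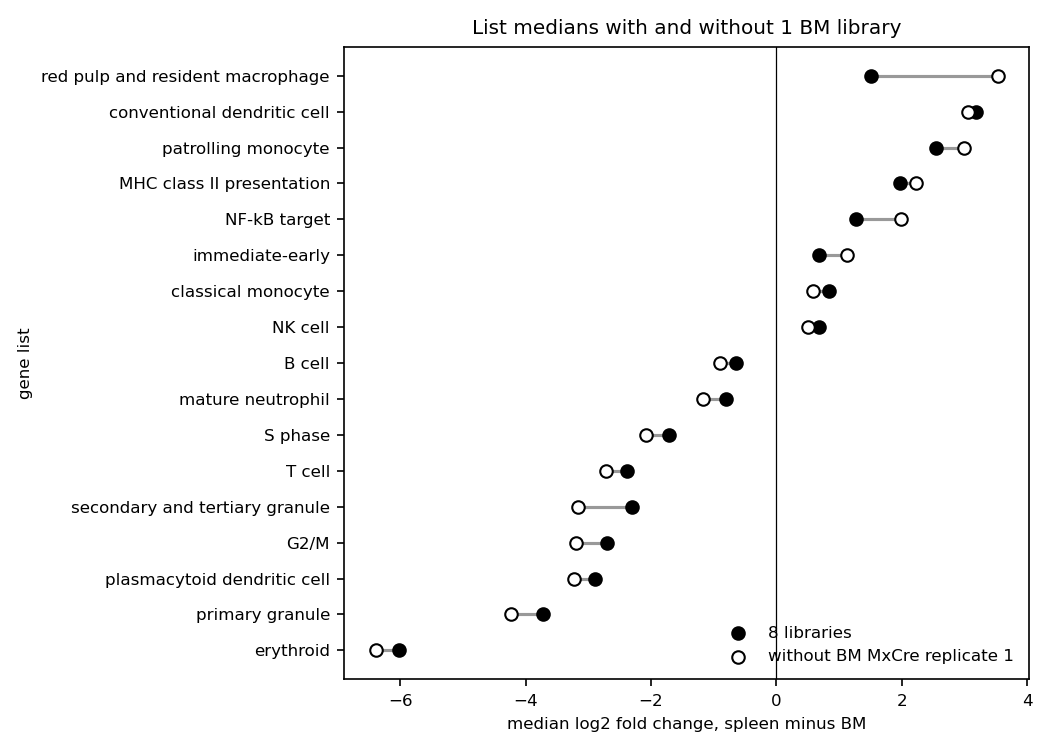
Median log2 fold change, spleen minus BM (x axis), of 17 gene lists (y axis) in the fit of 8 libraries (filled) and without BM MxCre replicate 1 (open). The macrophage median moved from 1.51 to 3.53 and the erythroid median from -6.02 to -6.39.

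The BCL-2 family, which controls the mitochondrial step of apoptosis and is central to the study's question of myeloid cell survival, showed 1 gene higher and 1 lower of 17 tested, where 1.32% of all genes were called in each direction. Bcl2a1d, a copy of the anti-apoptotic A1 gene (ENSMUSG00000099974, chr9:88723285-88731914 on the - strand), was 6.28, 5.61, 6.09 and 6.38 in spleen and 3.91, 1.82, 1.68 and 1.004 in BM (log2 fold change 3.83 ± 0.64 (SE), adjusted p = 0.0295), with every spleen library above every BM library. Bcl2a1d stayed called without BM MxCre replicate 1, at 4.59. Leaving out any other 1 library ended the call (adjusted p = 0.060 to 0.093), with log2 fold changes of 3.43 to 4.22. Bcl2l1, which encodes BCL-XL (ENSMUSG00000007659, chr2:152780668-152831728 on the - strand), was 5.75, 6.61, 5.30 and 4.60 in spleen and 7.03, 8.71, 8.73 and 8.49 in BM, lower in spleen by 6.64-fold (log2 fold change -2.73 ± 0.54 (SE), adjusted p = 0.0425). BCL-XL is also known as the survival protein of maturing erythroblasts, and the erythroid list fell in the same libraries. The part of erythroid cells in the fall was not tested.

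Bcl2a1a was 5.15, 4.98, 5.75 and 5.15 in spleen and 4.20, 0.74, -0.24 and 0.17 in BM (log2 fold change 3.63 ± 1.07 (SE), adjusted p = 0.114), and Bcl2a1b was 5.59, 5.20, 4.59 and 4.80 in spleen and 5.27, 1.35, 0.64 and -0.38 in BM (log2 fold change 2.76 ± 1.05 (SE), adjusted p = 0.195). Neither passed with 8 libraries, and both rose without BM MxCre replicate 1, by 5.05 and 4.33. In that fit 4 of the 17 rose, the A1 copies and Pmaip1, and Bcl2l1 fell, where 6.04% of all genes rose and 8.47% fell. The A1 copies are near-identical, and how reads were shared among them is not known. Mcl1, the most abundant anti-apoptotic member per length, was 10.72, 11.38, 8.72 and 9.76 in spleen and 10.57, 9.16, 9.57 and 9.41 in BM (log2 fold change 0.45 ± 0.46 (SE), adjusted p = 0.669), and the tissues overlapped. Bcl2 was at 1.01 ± 0.39 (adjusted p = 0.209) and Bcl2l2 at 0.51 ± 0.42, neither called.

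No BH3-only gene and no effector was called. Pmaip1, which encodes NOXA, was 10.07, 9.23, 7.66 and 9.19 in spleen and 8.60, 5.61, 5.77 and 5.89 in BM (log2 fold change 2.36 ± 0.65 (SE), adjusted p = 0.097) and rose by 3.28 ± 0.52 without BM MxCre replicate 1 (adjusted p = 0.00306). Bcl2l11, encoding BIM, had a log2 fold change of 1.22 ± 0.39 (adjusted p = 0.141), Bbc3 of 1.08 ± 0.47, Bad of -0.15 ± 0.24, Bid of -0.20 ± 0.27 and Bmf of -0.23 ± 0.38. Bik (-3.61 ± 1.76) had at most 56 counts in any library. The effectors Bax (0.57 ± 0.23), Bak1 (0.013 ± 0.27) and Bok (-1.75 ± 0.82) did not pass, with or without BM MxCre replicate 1, and their median went from 0.013 to -0.16 when it was left out. None of the 18 death receptor, caspase and IAP genes was called, with a median of 0.39, and 2 rose without BM MxCre replicate 1 (6.04% of all genes), with a median of 0.22. An adjusted p above the threshold does not show that levels were equal.

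**Figure D5:**
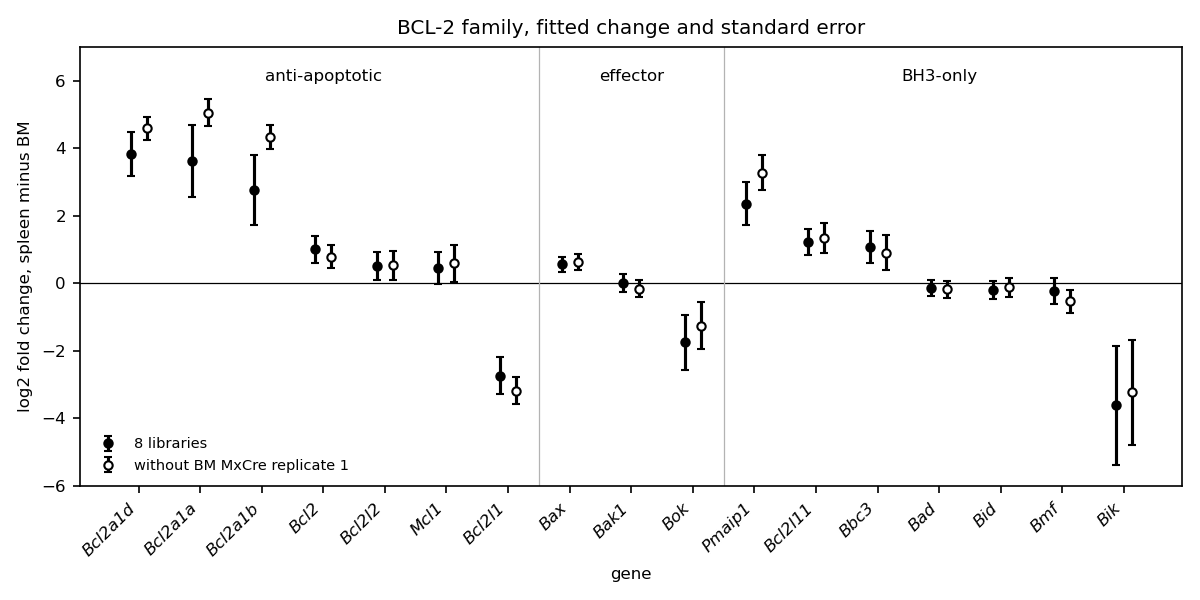
Fitted log2 fold change, spleen minus BM (y axis), with its standard error, of the 17 tested BCL-2 family genes (x axis) with 8 libraries (filled) and without BM MxCre replicate 1 (open). Bcl2a1d lies at 3.83 and Bcl2l1 at -2.73 with 8 libraries.

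Other cell types were measured through their markers. Of 12 T cell genes 1 fell with 8 libraries, where 1.32% of all genes fell. This gene, Il7r, the interleukin 7 receptor, was -0.96, -2.27, 1.66 and 1.04 in spleen and 2.56, 3.43, 3.88 and 4.44 in BM (log2 fold change -3.71 ± 0.59 (SE), adjusted p = 0.026), and the list's median was -2.38. The co-receptor gene Cd4 was at 0.66 ± 1.30, Cd2 at 0.15 ± 0.58, the kinase gene Lck at -2.07 ± 0.85 and Cd3d at -2.15 ± 0.47, none called with 8 libraries. In the fit without BM MxCre replicate 1, whose mean T cell level lay far below that of the other BM libraries, 8 of 12 fell and 1 rose, where 8.47% of all genes fell and 6.04% rose. There Cd3d fell by 2.52 (adjusted p = 0.00055), Lck fell by 2.34 (adjusted p = 0.0265) and Cd4 rose by 2.28 (adjusted p = 0.00888). The summed T cell level was 64.3, 36.4, 320 and 250 CPM in spleen and 150, 178, 245 and 243 CPM in BM. None of 10 NK cell, 5 plasma cell, 10 eosinophil, 8 basophil and mast cell or 13 megakaryocyte genes was called with 8 libraries. Leaving out BM MxCre replicate 1, 2 NK cell genes rose and 1 fell, 1 eosinophil gene rose and 2 fell, 3 basophil and mast cell genes rose, and no plasma cell gene was called, where 6.04% of all genes rose and 8.47% fell. The eosinophil median was then -0.45 and -0.20 with 8 libraries. The plasma cell median then went from -0.52 to 0.034, and the megakaryocyte median from 0.57 to 1.56 with 1 of 14 genes higher. In the stem and progenitor list 1 of 8 rose, where 1.32% of all genes rose. This was Procr (log2 fold change 4.40 ± 0.80 (SE), adjusted p = 0.0352), with at most 14 counts in a BM library. In the stroma and endothelium list 1 of 12 rose (1.32% of all genes), Cxcl13, with at most 7 counts in BM and up to 353 in spleen. Without that library 1 stem and progenitor gene rose and 1 fell, with the median going from 0.28 to 0.72, and 2 stroma and endothelium genes rose and 1 fell, with the median going from -0.66 to 0.49.

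Poly I:C induces interferon, and both tissues came from treated mice. Of 25 interferon-stimulated genes 2 rose, Zbp1 (5.84, 5.92, 5.42 and 5.80 in spleen and 4.26, 4.51, 4.36 and 4.59 in BM, log2 fold change 1.32 ± 0.22 (SE), adjusted p = 0.0275) and Gbp2 (log2 fold change 2.27 ± 0.37 (SE), adjusted p = 0.0275), with a median of 0.77. Here 1.32% of all genes rose. In the fit without BM MxCre replicate 1, 4 of 25 rose and 2 fell, where 6.04% of all genes rose and 8.47% fell. Rsad2, which encodes viperin, was 6.11, 7.28, 4.83 and 4.09 in spleen and 6.72, 8.52, 8.31 and 8.62 in BM and did not pass (log2 fold change -2.51 ± 0.74 (SE), adjusted p = 0.117). Pattern-recognition receptors had 2 of 15 higher, Nod1 (1.502 ± 0.23) and Tlr7 (1.73 ± 0.27), both intracellular sensors. Of 18 homing and adhesion genes S1pr5, a sphingosine phosphate receptor, rose (5.54, 4.71, 2.67 and 4.47 in spleen and 1.64, 2.41, 1.68 and 1.54 in BM, log2 fold change 2.68 ± 0.47 (SE), adjusted p = 0.0336). Growth factor receptors had Csf1r and Flt3 higher, 2 of 12. Ccnd1, cyclin D1, was the 1 of 12 ERK output genes called (4.56, 3.49, 7.53 and 6.68 in spleen and 1.55, 1.39, 1.97 and 2.76 in BM, log2 fold change 3.73 ± 0.56 (SE), adjusted p = 0.0228), and none of 15 SHP2 and RAS pathway genes and none of 6 NADPH oxidase genes was. Without BM MxCre replicate 1 the counts were 3 of 15 pattern-recognition receptors higher, 2 of 18 homing genes higher and 1 lower, 3 of 12 growth factor receptors higher, 2 of 12 ERK output genes higher, 1 of 15 SHP2 and RAS pathway genes higher and 1 lower, and no NADPH oxidase gene. In that fit 6.04% of all genes rose and 8.47% fell, so that several of these counts lay near the share over all genes. The homing median was -0.0049 beside 0.042 with 8 libraries, and the NADPH oxidase median went from -0.41 to -0.70. Among 18 myeloid transcription factors none was called with 8 libraries, and 8 rose and 2 fell without BM MxCre replicate 1, against the same shares. Runx1 was 6.56, 6.51, 4.85 and 5.72 in spleen and 5.60, 5.94, 5.76 and 5.69 in BM (log2 fold change 0.19 ± 0.31 (SE), adjusted p = 0.806).

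Whether the tissue difference was the same in both control genotypes was tested as an interaction. No gene of 16876 passed (0%), 1683 (9.97%) had an unadjusted p under 0.05, limma-voom called none and DESeq2 called 366. Leaving out BM MxCre replicate 2, so that BM MxCre replicate 1 alone stood for BM MxCre, gave 1146 calls, and leaving out any other 1 of the 8 libraries gave 0. Among the lists, the secondary and tertiary granule genes had the highest share with an unadjusted p under 0.05, 15 of 16, with a median difference of -3.61 (Ptpn11D61Y/+ minus MxCre). For Lcn2 the difference was -4.33 ± 0.88 (SE), with an unadjusted p = 0.00131 and an adjusted p = 0.494. The fitted fold change of Lcn2 was -0.13 in the MxCre libraries alone and -4.53 in the Ptpn11D61Y/+ libraries alone. Side by side, the list median was -0.41 and -4.19, that of mature neutrophil genes 0.38 and -2.25, and that of macrophage genes -0.56 and 3.52. The erythroid median, -6.09 and -5.91, and the MHC class II median, 1.70 and 2.36, had the same sign in both.

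The same contrast in S3 mice, 3 spleen against 3 BM libraries from animals whose numbers match, called no gene of 15420 (0%) and had 660 (4.28%) at an unadjusted p under 0.05. With the animal as a block, added after seeing the data, it also called none (0%) and had 1133 (7.35%) at an unadjusted p under 0.05. The difference between S3 and controls, tested in 1 fit of 14 libraries, called none of 17920 (0%), with 708 (3.95%) at an unadjusted p under 0.05, none by limma-voom and 46 by DESeq2. Erythroid genes had a median of -0.98 in S3 mice beside -6.02 in controls, and 13 had an unadjusted p under 0.05 for the difference. In S3 mice Hbb-bs had a log2 fold change of -1.04 and Slc4a1 of 0.51, the latter -1.88 with the block. Primary granule genes had -3.40 beside -3.73, MHC class II genes 2.36 beside 1.98, heat shock genes 0.18 beside 2.03 and NK cell genes -2.42 beside 0.69. Bcl2a1d was at 2.54 and Bcl2l1 at -1.16 in S3 mice, neither past the threshold there with or without the block.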

How the data were processed

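RNA was isolated with a column kit for small samples. The authors trimmed reads with Trim Galore 0.6.5 and mapped them with STAR 2.5.3a to mm10, per the submitters' processing notes. The program that counted reads, its annotation and its use of strand were not given in the sources used here, so reads of overlapping genes (Bcl2a1d with Gm10634, Mpo with Gm11505, Prtn3 with Plppr3, Alas2 with Apex2, Ace with Gm11651, Grasp with A330009N23Rik) could not be told apart. The authors deposited 1 table of raw counts per library, with 45706 Ensembl genes. Symbols were found for 45143 and not for 563, and positions were read from the GENCODE annotation of GRCm38.

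Counts were fitted with edgeR 4.0.16 in R 4.3.3 (TMM normalization, genes kept by at least 10 counts and 15 in total, quasi-likelihood test, genotype and tissue as terms, 5 residual degrees of freedom), and p-values were adjusted by Benjamini-Hochberg over all genes tested. A prior count of 2 was added for levels in log2 CPM. DESeq2 1.42.0 and limma-voom 3.58.1 were alternatives. The design included the control genotypes as a covariate because each tissue holds 2 libraries of each. The fit was tested on simulated data. These held no library unlike the rest of its group, so that test says nothing about such a library. Totals ran from 38436746 to 76587795 counts per library, and the part of depth in the precision of low genes was not tested. Replicates differed beyond sampling noise. Python 3 scripts read RefSeq promoters of GRCm38.p6.

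Genes are named by a rule: of called genes that averaged 3 log2 CPM or more and did not overlap between tissues, the 12 that rose most and the 12 that fell most (leaving out unnamed gene models and antigen receptor segments), from each list its called members or those among its 4 most abundant, all BCL-2 family genes, and Ptpn11, Itgam, Cd74, Tnf and Runx1. Some genes that the rule names are not reported here. Sex-linked genes served as a check of animals. The members and lists were chosen with earlier results of these data known, so that no list is independent evidence. LSK libraries were not used here except in the alternative fit of all 21 libraries.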

Additional observations from a re-analysis of the deposited data

Results flagged for a closer look

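Within each tissue the 4 libraries were checked for 1 lying far from the other 3, over 4 library measures and 41 gene lists. This gave 13 such values in 90 groups of 4, and chance gives about 1 in 20 groups. Of the 13, 10 were in BM MxCre replicate 1. Its mean level was higher than in the other BM libraries for red pulp and resident macrophage genes (8.56 log2 CPM against 3.70 to 4.004), myeloid transcription factors (7.08 against 5.56 to 5.78) and iron and heme recycling genes (8.98 against 7.03 to 7.21). It was lower for erythroid genes (5.69 against 9.76 to 10.13), S phase genes (2.95 against 5.84 to 5.96), G2/M genes (2.93 against 6.65 to 6.88) and eosinophil genes (4.11 against 4.61 to 4.66). It was also lower for plasmacytoid dendritic cell genes (-2.63 against 3.64 to 3.97), NK cell genes (-2.16 against 1.85 to 2.13) and T cell genes (-0.66 against 3.39 to 4.04). In spleen Ptpn11D61Y/+ replicate 1 mitochondrially encoded transcripts took 3.79% of the counts against 0.317% to 0.641%, and the immediate-early mean was 7.29 against 9.14 to 9.25. In spleen MxCre replicate 2 the mean of interferon-stimulated genes was 5.42 against 4.58 to 4.70. The causes were not tested.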

How the results depend on the processing

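Counts are given as higher and lower in spleen, 222 and 223 in the fit reported. Leaving out 1 library at a time gave 33 to 1101 higher and 4 to 1543 lower. DESeq2 gave 935 and 1300, limma-voom 395 and 317, no filter on low counts 277 and 387, all 21 libraries 808 and 1141, neither MxCre library numbered 1 1104 and 1470, the MxCre libraries alone 0 and 0, the Ptpn11D61Y/+ libraries alone 1939 and 2326, and no genotype covariate 92 and 83. RLE size factors (231 and 253) and at least 10 counts in every library (181 and 222) stayed within 1.5 times. With the replicate number as a block the counts were 70 and 69. Deviations of same-numbered libraries correlated at -0.03 (MxCre) and -0.31 (Ptpn11D61Y/+). Each genotype gives only 1 such value, which cannot show whether same-numbered libraries share an animal. With the Ptpn11D61Y/+ numbers crossed, a pairing chosen after seeing the data, 39 and 39 were called. The causes of these shifts were not tested.

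The genotype difference called 0 genes with or without the block, 366 by DESeq2 and 0 to 1146 with 1 library left out. The contrast within S3 mice and the S3 difference each called 0 with or without the block, and the S3 difference 46 by DESeq2 and 0 with any 1 library left out.

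Of 137 genes with a fold change checked, 65 were called, and none of these changed direction under any alternative. Uncalled genes that did were, with the MxCre libraries alone, Hmox1 (-0.40), C1qa (-0.94), Vcam1 (-0.68), C1qc (-0.52), Bid (0.030), Bmf (0.55), Itgam (0.76), Spn (0.49), Fn1 (1.11), Ighm (-0.53), Cd2 (-0.54) and Cd4 (-1.63). With the Ptpn11D61Y/+ libraries alone they were Mcl1 (-0.15), Tnf (-0.11), Runx1 (-0.36), Jun (-0.0079), Dnajb1 (-0.11), Clec10a (0.24), Csf3r (-0.94) and Cd79a (0.11). Without the genotype covariate C1qa was -0.37. With library size only Bid was 0.0083, Bad 0.060, Spn 0.041 and Fn1 0.12. Without either MxCre library numbered 1 Bak1 was -0.040, Runx1 -0.057, Ighm -0.048 and Cd2 -0.10. By limma-voom Fn1 was 0.12 and Ighm -0.16, and Fn1 was 0.052 with all 21 libraries, 0.044 with the block and 0.17 with the crossed block. With 1 library left out the ranges were Bad -0.29 to 0.040, Bmf -0.54 to 0.11, Bak1 -0.16 to 0.26, Ptpn11 -0.51 to 0.023, Runx1 -0.0049 to 0.53, Junb -0.027 to 1.53, Zfp36 -0.096 to 1.14, Spn -0.59 to 0.21, Fn1 -0.67 to 0.62, Clec10a -1.09 to 0.080, Csf3r -0.45 to 0.62, Ighm -0.34 to 0.76, Cd79a -1.19 to 0.12, Cd2 -0.11 to 0.86 and Cd4 -0.31 to 2.28. Of the called genes, 65 stayed called without BM MxCre replicate 1, 21 under the block and 13 under the crossed block. With any other 1 library left out 9 to 29 stayed called, fewest without spleen Ptpn11D61Y/+ replicate 2. Bik and Cxcl13 had few counts in some libraries, and the part of depth in their values was not tested.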

Other observations

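Genes of protein synthesis and respiration stood outside the lists above. Of 87 tested cytosolic ribosomal protein genes, 83 had a positive fold change with a median of 0.44, and none was called with 8 libraries or without BM MxCre replicate 1. Their summed level was 115221, 81903, 64650 and 103183 CPM in spleen and 82302, 104980, 52202 and 47348 CPM in BM, so the tissues overlapped. Of 90 nuclear-encoded oxidative phosphorylation genes none was called with 8 libraries, 2 fell without BM MxCre replicate 1 (8.47% of all genes), and 31 were positive, with a median of -0.14. With library size as the only scaling, 55 were positive and the median was 0.10, and the BH3-only median turned from -0.15 to 0.06. The mitochondrially encoded genes had 14 tested, none called and a median of 0.51. Their summed level was 6347, 3826, 27151 and 5099 CPM in spleen and 12473, 1938, 6198 and 4273 CPM in BM. Spleen Ptpn11D61Y/+ replicate 1 was the highest of these, and the other spleen libraries lay within the BM range. Without BM MxCre replicate 1, 5 of 15 rose, where 6.04% of all genes rose, with a median of 1.82. The median was -0.44 in the MxCre libraries alone and 1.54 in the Ptpn11D61Y/+ libraries alone.

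Genes of macrophage iron handling and of the Fc receptor and complement list were not called with 8 libraries apart from the falls of Tfrc and Blvrb. Leaving out BM MxCre replicate 1, 4 of 12 iron and heme genes rose and 2 fell, with the median going from 0.44 to 1.02. In the same fit 3 of 10 Fc receptor and complement genes rose and 1 fell, with the median going from 0.46 to 0.72, where 6.04% of all genes rose and 8.47% fell. The iron and heme sum was 17790, 31103, 12669 and 8217 CPM in spleen and 36415, 7074, 7968 and 5893 CPM in BM, the latter highest in BM MxCre replicate 1.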
